A study of Mus musculus with 6 samples.

Results

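To ask how the age of neighbouring fibroblasts bears on gene expression in single cardiomyocytes, UMI counts of nanowells holding co-cultured cardiomyocytes were compared between adult and neonatal fibroblast co-cultures. Immature cardiomyocytes (imCMs) were taken from the left ventricles of newborn C57BL/6 mice (C57BL/6J in the study's methods) and grown on a layer of cardiac fibroblasts of the same strain, which came either from the hearts of neonates (NFs) or from adult left ventricles (AFs). No gene was altered and no compound was added in either group, the fibroblasts of both ages had been passaged before use, and more AFs than NFs were plated per imCM. Cells of the co-culture were separated by a fluorescent dye in a cell sorter and dispensed on an ICELL8 chip, whose nanowells were imaged to pick those with a single live cell and whose primers tag each transcript with a unique molecular identifier (UMI). Wells of the cardiomyocyte chip that carry the names AFNCM1, AFNCM2 and AFNCM3 formed the imCM-AF group, and those named NFNCM1, NFNCM2 and NFNCM3 formed the imCM-NF group.

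These 6 names held 1134 wells. A well was kept if it had 500 or more non-mitochondrial genes and if its UMIs of Tnnt2, Tnni3, Myh6, Actc1 and Tnnc1 summed to more than those of Col1a1, Col1a2, Col3a1, Dcn, Postn and Lum. This left 927 wells, 441 with AFs and 486 with NFs, of 1419 wells on this chip and 2482 wells on both chips of the series. The gene minimum removed 62 wells and the marker sums removed 145, and 47 kept wells had a cardiomyocyte sum of no more than 2 times the fibroblast sum, beside 47 removed wells within the same factor on the other side. The UMIs of the kept wells were then added up per name, which gave 3 pools per group of 130, 164 and 147 wells (AFNCM1 to AFNCM3) and of 165, 151 and 170 wells (NFNCM1 to NFNCM3). Each name belonged to 1 position of the dispensing plate, and all 6 pools shared 1 chip. AFNCM1 to AFNCM3 came from positions B2, C2 and D2 and NFNCM1 to NFNCM3 from B1, C1 and D1. Group and plate column therefore cannot be told apart, and pools of the same number shared a plate row. Whether the 3 names of a group stand for separate cultures was not given in the sources used here, so the p-values below measure only the spread between these pools, which may be technical.

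The pools held 3648086 to 5244717 UMIs. A kept well had a median of 18712 UMIs and 2672 genes, and the 5 wells without a cell had a median of 145 UMIs and at most 951. The chips carry a fixed set of well barcodes, of which 269 occurred on both, so a shared barcode does not mark a shared cell. The median per well of UMIs, genes, alignment rate and mitochondrial share overlapped between the groups. The 6 fibroblast markers of the rule did not: they took 0.126% of the UMIs with AFs and 0.0529% with NFs, the rule kept 81.8% of wells with AFs and 91.2% with NFs, and 11.2% and 36.5% of kept wells had no UMI of these markers (means of 3 pools each). These shares rest on the genes that chose the wells and are given without a test.

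The label was checked against the 5 cardiomyocyte markers, which chose the wells and are therefore described without a test. All 5 were detected in 893 of 927 wells. Tnnt2, cardiac troponin T, stood at 14776, 14046 and 14565 CPM (UMIs of a gene per 1e+06 UMIs of the pool, scaled by the TMM method) in AFNCM1, AFNCM2 and AFNCM3 and at 12777, 17531 and 13414 CPM in NFNCM1, NFNCM2 and NFNCM3. Together the 5 markers made up 3% or more of the UMIs in 535 wells, 0.5 to 3% in 323 wells and under 0.5% in 69 wells. Endothelial markers summed to more than the cardiomyocyte markers in 23 kept wells, macrophage markers in 15 and smooth muscle markers in 1. Wells over 3% made up 51.5%, 53.05% and 44.9% of the AFNCM pools and 61.8%, 68.9% and 64.1% of the NFNCM pools, so the groups did not overlap in this share.

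Cells that meet viral nucleic acid or type I interferon switch on a shared set of antiviral genes. Interferon binds its receptor, the kinases Jak1 and Tyk2 become active, and a complex of transcription factors that includes Stat2 and Irf9 binds the interferon-stimulated response element (ISRE) in promoters. The products include cytosolic RNA sensors, proteins that bind viral RNA, and proteins that dampen the signal again. In the heart, cardiomyocytes as well as fibroblasts can mount this response.

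The sequences below are shown because the results turn on Ifit1 and Ifit3, whose products bind foreign RNA and its partner proteins, and because both promoters hold the letters that the complex recognises. They are taken from the RefSeq promoter table (GRCm38.p6, forward strand, 5′ to 3′). The capitals mark TTTC, any 2 bases and TTTC, which is the reverse complement of the ISRE core (GAAA, any 2 bases, GAAA).
Ifit1, chr19:34640755-34640843: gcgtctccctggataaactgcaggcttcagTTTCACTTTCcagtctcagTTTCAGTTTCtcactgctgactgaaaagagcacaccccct
Ifit3, chr19:34583343-34583446: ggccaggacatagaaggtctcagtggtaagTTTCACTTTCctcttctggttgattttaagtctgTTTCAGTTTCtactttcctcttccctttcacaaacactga
Each stretch holds the core 2 times, beginning 104 and 85 bases before the annotated start in Ifit1 and 156 and 122 bases before it in Ifit3. The core was searched on both strands in the 250 bases before each start. A gene with several annotated starts counted as holding the core if any of its starts did. The shares below are therefore of genes, not of promoters, and can rise with the number of starts of a gene. The core occurred in 936 of the 27025 genes with a promoter in that table (3.46%). Among genes tested here the core occurred in 266 of the 8531 with a promoter in that table (3.12%), and among genes called higher with AFs in 24 of 84 (28.6%). It occurred in 7 of 17 called antiviral genes and, outside that list, in 17 of 67 called genes (25.4%). The promoters of Xaf1, Ifi44 and Ifih1 held no match in this window.

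Of 12176 genes tested with edgeR's quasi-likelihood test, 141 were called (1.16%), meaning an adjusted p under 0.05 and a log2 fold change beyond 0.58 in either direction. Expression of 125 genes was higher with AFs (1.03%) and that of 16 was lower (0.131%), and the median log2 fold change of all genes was 0.00. An unadjusted p under 0.05 was reached by 1354 of the 12176 genes, a share to set beside the list counts below. Of the 125 higher genes, 40 belong to the antiviral list or to the list of MHC class I genes and GTPases described below. Of the 141 genes, 4 were fibroblast genes of the rule and 6 carried predicted names. No called gene drew more than 50% of its UMIs in the group where it was higher from a single well. Among the 125 higher genes the largest such share was 49.8%, just under this limit, and the median was 9.56%.

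Among the gene lists examined, antiviral genes had the largest median rise. The list had 40 members, of which 33 passed the filter on low counts. Isg20, Oas1a, Oas2, Oas3, Mx1, Dhx58 and Cmpk2 did not pass it, and since a member can pass through the pools where it is high, the counts below are no independent support. With AFs 27 of the 33 were called higher, against 1.03% of all tested genes, and none lower. In 32 of them the AFNCM pools all lay above the NFNCM pools, which held for 8.85% of all tested genes. The median log2 fold change was 3.34, with or without a bound for the 1 member at 0 in all NFNCM pools. Summed over all 40 members, the level was 1393, 2103 and 1944 CPM in AFNCM1 to AFNCM3 and 177, 143 and 170 CPM in NFNCM1 to NFNCM3, an 11.1-fold difference between the group means. List sums here and below are plain CPM, whereas values of single genes are TMM-scaled.

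Among the effectors, Ifit1 (ENSMUSG00000034459, GRCm38 chr19:34640871-34650009) was measured at 162, 180 and 169 CPM with AFs and at 2.51, 0.555 and 1.56 CPM with NFs. Its log2 fold change was 6.76 ± 0.32 (SE, 3 against 3 pools, adjusted p = 4.2e-06), or 109-fold. The 3 AFNCM pools lay close together and far above every NFNCM pool. Ifit3, beside it on the chromosome (chr19:34583531-34588731), was measured at 23.1, 62.1 and 79.5 CPM with AFs and at 0, 0 and 0.976 CPM with NFs, and rose by 7.03 ± 0.78 (adjusted p = 0.00135). Ifit3 and Ifit3b are near-identical copies, so reads may be split between them. Both were called, and Ifit2 of the same family was not (1.801 ± 0.64, adjusted p = 0.295).

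Xaf1, a partner of apoptosis inhibitors (chr11:72301629-72313733), stood at 115, 199 and 138 CPM with AFs and at 1.39, 2.22 and 2.15 CPM with NFs, a rise of 6.26 ± 0.32 (adjusted p = 5.83e-06). Rtp4, which binds RNA and restrains the response (chr16:23520291-23614222, a span that overlaps Masp1), stood at 117, 200 and 168 CPM with AFs and at 2.79, 1.66 and 0.391 CPM with NFs, a rise of 6.73 ± 0.44 (adjusted p = 2.85e-05). Ifi44 (chr3:151730922-151749960) was measured at 39.4, 66.3 and 81.8 CPM with AFs and at 4.18, 0.277 and 0.391 CPM with NFs, a rise of 5.34 ± 0.68 (adjusted p = 0.00314). In each of these 3 genes the lowest AFNCM pool was well above the highest NFNCM pool. Ifi27l2a was the member seen only with AFs at this depth, with 251 UMIs there and 0 UMIs in the 3 NFNCM pools, which makes it at least 70.8-fold higher against a floor of 3 counts over the group.

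Some RNA sensors and transcription factors of the list were called higher as well. Ifih1, the sensor MDA5 (chr2:62595798-62646255), stood at 29.96, 41.4 and 57.1 CPM with AFs and at 1.11, 3.33 and 1.17 CPM with NFs, a rise of 4.53 ± 0.48 (adjusted p = 0.000943). Ddx58, the sensor RIG-I, rose by 2.45 ± 0.36 (adjusted p = 0.0084), Zbp1 by 5.93 ± 0.83 and the RNA-activated kinase Eif2ak2 by 2.10 ± 0.21. Of the transcription factors, Irf7 rose by 4.35 ± 0.61 (adjusted p = 0.0062). Stat2 and Irf9 were not called, at 1.54 ± 0.45 (adjusted p = 0.2) and 1.74 ± 0.41 (adjusted p = 0.0964), although their pools did not overlap. Usp18, which removes the tag Isg15 from proteins and blocks the receptor (chr6:121245906-121270917), stood at 67.9, 76.9 and 82.2 CPM with AFs and at 0.557, 0.555 and 1.56 CPM with NFs, a rise of 6.27 ± 0.37 (adjusted p = 1.6e-05).

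**Figure D1:**
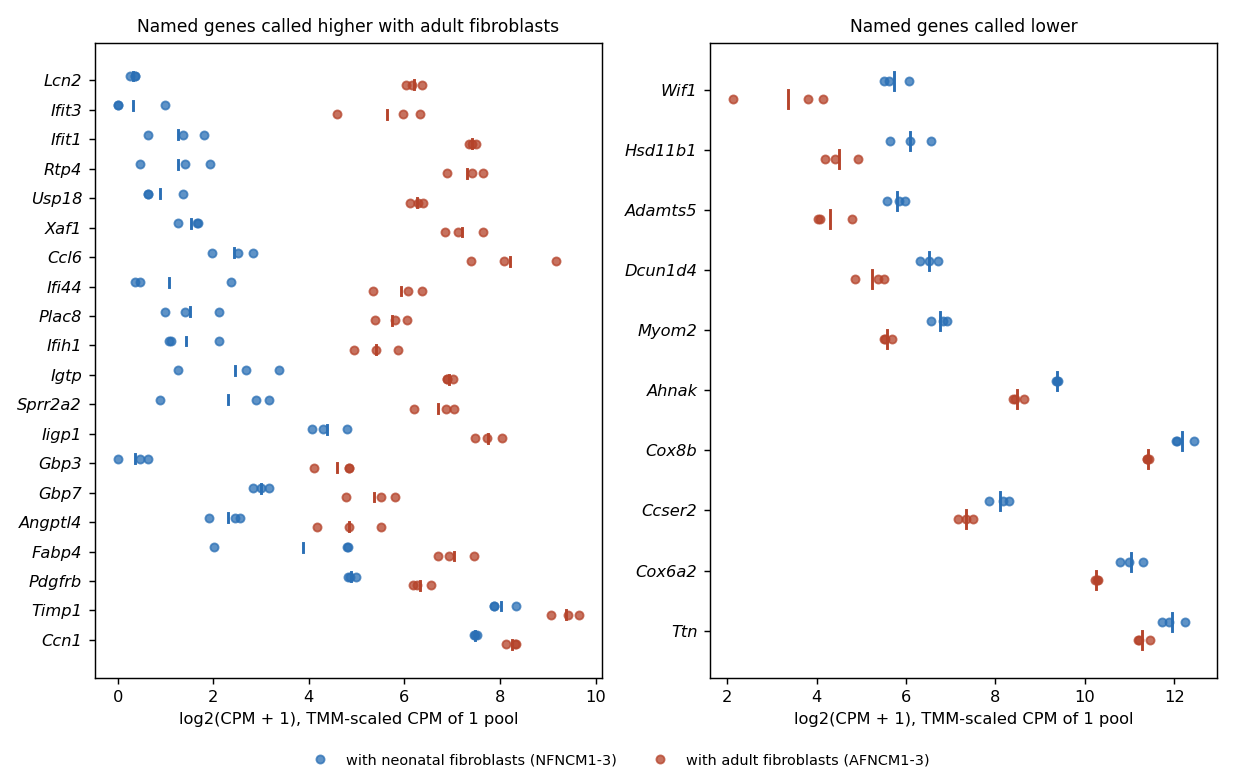
Level of each named gene in each pool, as log2(CPM + 1) with TMM-scaled CPM; 1 dot is 1 pool of wells, red with adult and blue with neonatal fibroblasts, and the short bar is the mean of the 3 dots. Only called genes are drawn, and all 141 called genes had pools without overlap. The separation of the 3 red from the 3 blue dots thus follows from the choice of genes and is no further result. Ifit1 lies at 162 to 180 CPM with AFs and at 0.555 to 2.51 CPM with NFs.

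Of a set of ligands, receptors and other genes upstream, added after values had been seen, no tested member was called. Over all 6 pools Ifna2 had 1 UMI, Ifna14 had 2, Ifna16 had 7, Ifnl2 had 1, and Ifna15 and Ifng had 0, and Ifnb1, Ifna1, Ifna4 and Ifnl3 were not analysed here. The receptor chains Ifnar1 and Ifnar2 stood at log2 fold changes of -0.06 ± 0.29 (adjusted p = 0.97) and 0.72 ± 0.32 (adjusted p = 0.426), and Ifngr1 and Ifngr2 at 0.04 ± 0.24 and -0.31 ± 0.16. The kinases Jak1 and Tyk2 stood at 0.33 and -0.33, Irf1 at -0.52, Irf3 at -0.01 and the sensor adaptor Mavs at -0.01, none of them called. Tmem173, the adaptor STING, had non-overlapping pools of 8.62, 18.2 and 9.61 CPM with AFs and 4.18, 0.555 and 2.15 CPM with NFs and was not called (2.40 ± 0.67, adjusted p = 0.164). Tlr3, an endosomal RNA sensor, had non-overlapping pools of 6.90, 5.95 and 3.96 CPM with AFs and 0, 0.277 and 0.976 CPM with NFs but was not called (3.54 ± 0.86, adjusted p = 0.107).

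The antiviral difference was spread over wells. At least 1 UMI of the 40 members was found in 92.3%, 100% and 99.3% of wells in AFNCM1 to AFNCM3 and in 56.4%, 69.5% and 64.1% of wells in NFNCM1 to NFNCM3. To compare wells of unequal depth, each well with enough reads was thinned to 5000 UMIs, which used 748 wells and left out 179. The median thinned well then showed 4, 5 and 5 members in the AFNCM pools and 0 in each NFNCM pool. Wells with 3 or more members made up 70.8%, 84.8% and 84.3% of the AFNCM pools and 2.61%, 1.55% and 2.94% of the NFNCM pools. No cell type on the chip is known to lack these genes, and the AFNCM wells were set only against the NFNCM wells, which share chip and depth. The chip held 1419 wells, and those outside the 1134 wells of the AFNCM and NFNCM names were not used as a further reference for the antiviral level. Whether AFs raise this level or NFs lower it was therefore not tested.

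**Figure D2:**
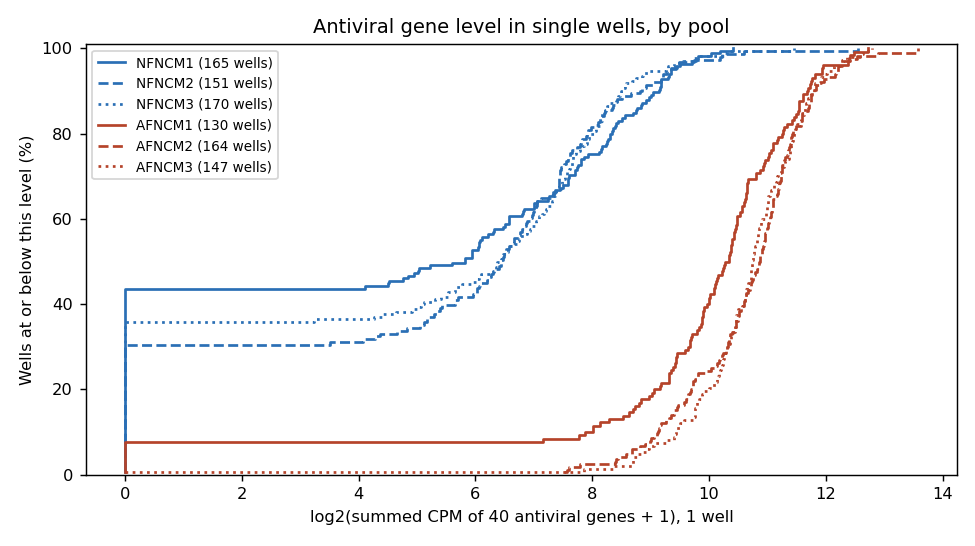
Share of wells (vertical axis, %) whose summed level of the 40 antiviral genes, as log2(CPM + 1) of 1 well without thinning, is at or below the value on the horizontal axis; each line is 1 pool. The medians lie at 1270, 1859 and 1712 CPM in AFNCM1 to AFNCM3 and at 55.6, 85.8 and 83.5 CPM in NFNCM1 to NFNCM3.

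RNA from fibroblasts moved with the groups too, and the antiviral level was therefore taken in subsets of wells. On the fibroblast chip, wells of the AF1 and AF2 pools stood at 2355 and 3515 CPM for the list, and wells of NF1 and NF2 at 335 and 288 CPM. In the wells that the marker sums had removed, the list stood at 2247, 2562 and 3141 CPM in AFNCM1 to AFNCM3 and at 455, 375 and 340 CPM in NFNCM1 to NFNCM3. In the kept wells without a single UMI of the 6 fibroblast markers (33, 8 and 5 AFNCM wells and 63, 48 and 67 NFNCM wells), it stood at 1168, 1359 and 918 CPM with AFs and at 98.8, 161 and 131 CPM with NFs. In the wells where cardiomyocyte markers made up 3% or more of the UMIs, it stood at 1308, 1904 and 1728 CPM with AFs and at 110, 98.4 and 103 CPM with NFs. The pools did not overlap in any of these subsets. The last 2 subsets were chosen after the data had been seen. Wells without fibroblast marker UMIs were shallow, with a median of 7761 to 7881 UMIs in the AFNCM pools and 7807 to 12623 in the NFNCM pools. They were not free of RNA of other cells, as endothelial markers summed to 2204, 2625 and 118 CPM with AFs. With NFs the endothelial sums in these wells were 129, 26.4 and 230 CPM. A refit of the wells without fibroblast marker UMIs left 9 antiviral genes to test, of which 2 were called higher.

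MHC class I genes and immunity-related GTPases, which present peptides to T cells and attack membranes around microbes, were called higher in 13 of 18 cases. Of all tested genes 1.03% were called higher. Of 24 members 18 were tested, none was called lower, and the median log2 fold change was 1.65. Here too a member can pass the filter on low counts through the pools where it is high, so these counts are no independent support. Their summed level was 2084 to 2862 CPM with AFs and 646 to 1099 CPM with NFs, a 2.88-fold difference. Without AFNCM2, AFNCM3 or NFNCM2 the number called fell to 6, 7 and 7 members, and without NFNCM3 to 8.

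GTPases of this list differed among themselves. Iigp1 stood at 209, 262 and 178 CPM with AFs and at 26.7, 15.8 and 18.6 CPM with NFs, a rise of 3.41 ± 0.24. Igtp, which overlaps its relative Irgm2 (GRCm38 chr11:58199556-58207591), stood at 117, 118 and 128 CPM with AFs and at 1.39, 9.43 and 5.47 CPM with NFs, a rise of 4.47 ± 0.43 (adjusted p = 0.000571). Gbp3 stood at 16.2, 27.5 and 27.7 CPM with AFs and at 0, 0.555 and 0.391 CPM with NFs, a rise of 6.09 ± 0.65 (adjusted p = 0.0011). Gbp7 of the same family rose by 2.57 ± 0.34, whereas Gbp2 was not called (1.46 ± 0.88, adjusted p = 0.613). Members of these families share sequence, so the split of reads between relatives is uncertain.

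Genes of antigen presentation ranged as widely. B2m, the light chain of MHC class I, stood at 837, 1224 and 1098 CPM with AFs and at 634, 291 and 422 CPM with NFs, a rise of 1.23 ± 0.25 (adjusted p = 0.044). The heavy chain H2-K1 rose by 1.85 ± 0.26 (adjusted p = 0.0071), while H2-D1 had overlapping pools and was not called (1.10 ± 0.38, adjusted p = 0.279). Tap1, a subunit of the peptide transporter, rose by 4.13 ± 0.81 from low levels. The proteasome subunit Psmb10 rose by 1.13 ± 0.16 and the regulators Psme1 and Psme2 by 1.15 ± 0.22 and 0.76 ± 0.15, and Psmb8 was not called at 3.04 ± 0.65 (adjusted p = 0.0622).

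Genes outside both lists were also among the largest rises. Lcn2, a secreted iron-chelate carrier of the acute phase (chr2:32384633-32388252), stood at 70.9, 82.0 and 64.6 CPM with AFs and at 0.279, 0.277 and 0.195 CPM with NFs, a rise of 8.06 ± 0.37 (adjusted p = 4.2e-06). Each NFNCM pool held 1 UMI of Lcn2, and the ratio of 1113 to 3 UMIs, scaled to the pools, was 314 with a 95% counting interval of 107 to 1525. In thinned wells Lcn2 was seen in 13.5%, 24.8% and 13.4% of AFNCM wells and in 0% of NFNCM wells in each pool, and on the fibroblast chip it stood at 359 and 432 CPM in AF1 and AF2 and at 0.857 and 2.27 CPM in NF1 and NF2.

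Ccl6, a chemokine of myeloid cells (chr11:83587882-83593087), stood at 167, 270 and 578 CPM with AFs and at 4.74, 6.10 and 2.93 CPM with NFs, a rise of 6.23 ± 0.51 (adjusted p = 0.000184). The AFNCM pools differed among themselves, with UMIs of Ccl6 in 10%, 44.5% and 66.0% of their wells. In wells with cardiomyocyte markers at 3% or more its log2 fold change was 4.47 and not called (adjusted p = 0.0624), and in wells without fibroblast marker UMIs it was 1.95 (adjusted p = 0.655). The summed level of the 13 macrophage markers overlapped, at 151, 693 and 898 CPM with AFs and at 1461, 1035 and 357 CPM with NFs, and 0 of the 12 tested were called (edgeR, 0 at an unadjusted p under 0.05). On the fibroblast chip Ccl6 stood at 143 and 0.393 CPM in AF1 and AF2 and at 0.857 and 1.13 CPM in NF1 and NF2. In the bulk libraries described below it was not called (0.07 ± 0.17, edgeR adjusted p = 0.803). There it stood at 9.22 and 10.4 CPM with AFs and at 8.92 and 9.75 CPM with NFs. The part of macrophage RNA in Ccl6 was not tested.

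Plac8, a small cysteine-rich protein, stood at 54.7, 65.2 and 40.9 CPM with AFs and at 1.67, 3.33 and 0.976 CPM with NFs, a rise of 4.78 ± 0.43. Sprr2a2, a cornified envelope protein whose locus overlaps the near-identical Sprr2a1, stood at 72.8, 131 and 117 CPM with AFs and at 0.836, 6.38 and 8.01 CPM with NFs, a rise of 4.34 ± 0.51 (adjusted p = 0.00166). Angptl4, a secreted inhibitor of lipoprotein lipase, stood at 44.4, 27.7 and 17.0 CPM with AFs and at 4.46, 2.77 and 4.88 CPM with NFs, a rise of 2.86 ± 0.45 (adjusted p = 0.013). It was the 1 called member of 27 fatty acid oxidation genes tested, whose median was 0.12, and its call was lost without AFNCM1, NFNCM1 or NFNCM2 (adjusted p up to 0.0667).

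Fewer genes fell, and they moved by smaller steps. By the naming rule 10 of the 16 called genes qualified. Myom2, the M-band protein that ties myosin filaments together (chr8:15057653-15133541), stood at 45.0, 50.2 and 44.7 CPM with AFs and at 112, 121 and 92.9 CPM with NFs, a fall of 1.22 ± 0.18 on the log2 scale (log2 fold change -1.22, adjusted p = 0.0079). Ahnak, a giant scaffold protein (chr19:8989284-9076914), stood at 398, 335 and 347 CPM with AFs and at 671, 654 and 664 CPM with NFs (-0.88 ± 0.12, adjusted p = 0.00434). These 2 remained called whichever pool was left out.

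Wif1, a secreted Wnt inhibitor, stood at 16.8, 13.0 and 3.39 CPM with AFs and at 65.7, 44.6 and 48.4 CPM with NFs (-2.26 ± 0.46, adjusted p = 0.0486). Hsd11b1, which activates glucocorticoids, stood at 29.5, 17.1 and 20.3 CPM with AFs and at 92.8, 49.1 and 66.8 CPM with NFs (-1.64 ± 0.30, adjusted p = 0.0255). Adamts5, a protease of the matrix, stood at 15.9, 26.8 and 15.5 CPM with AFs and at 62.4, 46.3 and 56.6 CPM with NFs (-1.50 ± 0.28, adjusted p = 0.0288). In the wells with cardiomyocyte markers at 3% or more, Hsd11b1 stood at a log2 fold change of -0.04 and Adamts5 at 1.06. Without 1 pool, Wif1 lost its call in 4 of 6 fits (AFNCM2, NFNCM1, NFNCM2 or NFNCM3 left out, adjusted p up to 0.155), Hsd11b1 in 4 (AFNCM2, AFNCM3, NFNCM1 or NFNCM3, up to 0.116) and Adamts5 in 5 (all but AFNCM2, up to 0.109).

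Dcun1d4, of a family that promotes neddylation, and Ccser2, a coiled-coil protein, fell with log2 fold changes of -1.27 ± 0.22 (adjusted p = 0.0214) and -0.78 ± 0.16 (adjusted p = 0.0433). Dcun1d4 stood at 28.0 to 44.3 CPM with AFs and at 78.1 to 105 CPM with NFs, and Ccser2 at 143 to 180 CPM and at 232 to 316 CPM. Dcun1d4 lost its call without AFNCM1, AFNCM2, NFNCM1 or NFNCM2 (adjusted p up to 0.0967) and Ccser2 without any pool but NFNCM1 (up to 0.155).

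Genes of oxidative phosphorylation were lower as a group, by a small amount. These nuclear genes encode the respiratory chain and ATP synthase, which supply most of the ATP of the beating heart. All 60 members were tested, all 60 had a negative log2 fold change and 41 had AFNCM pools that all lay below the NFNCM pools, against 7.46% of all tested genes, but only 2 were called and 44 had an unadjusted p under 0.05. The median was -0.34. Their summed level was 89150 to 94142 CPM with AFs and 104722 to 124717 CPM with NFs, a ratio of 0.81. By complex, the medians were -0.34 for complex I (15 of 24 members without overlap), -0.28 for complex II (1 of 4), -0.29 for complex III (4 of 7), -0.40 for complex IV (12 of 13) and -0.33 for complex V (8 of 11).

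Both called members were heart isoforms of complex IV, cytochrome c oxidase. Cox8b (chr7:140898945-140900446) stood at 2698, 2765 and 2682 CPM with AFs and at 4207, 5586 and 4244 CPM with NFs (-0.79 ± 0.12, adjusted p = 0.0104). Cox6a2 (chr7:128205435-128206387, overlapped by Itgad) stood at 1244, 1200 and 1229 CPM with AFs and at 1767, 2516 and 2029 CPM with NFs (-0.78 ± 0.13, adjusted p = 0.0165). In both genes the AFNCM pools were nearly level and NFNCM2 was the highest pool. The third heart isoform, Cox7a1, was not called (-0.32 ± 0.12), and neither were the isoforms of other tissues, Cox8a (-0.23 ± 0.11), Cox6a1 (-0.20 ± 0.11) and Cox7a2 (-0.45 ± 0.11). Cox8b lost its call without AFNCM3 (adjusted p = 0.0513), and Cox6a2 without AFNCM1, AFNCM2, AFNCM3 or NFNCM3 (up to 0.0856).

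The cardiomyocyte share of the wells moved with this list. Wells with cardiomyocyte markers at 3% or more were fewer in the AFNCM pools, as given above. Within those wells, oxidative phosphorylation genes summed to 121374, 111997 and 110403 CPM with AFs and to 140465, 143233 and 144665 CPM with NFs. In the kept wells with any UMI of the 6 fibroblast markers the sums were 93176, 89143 and 93136 CPM with AFs. With NFs they were 94973, 122875 and 100909 CPM there, so AFNCM1 and NFNCM1 lay close together. In the kept wells without fibroblast marker UMIs (33, 8 and 5 AFNCM wells) the sums were 102923, 89435 and 124491 CPM with AFs. With NFs they were 133584, 131086 and 138792 CPM. Endothelial markers in those wells summed to 2204, 2625 and 118 CPM with AFs and to 129, 26.4 and 230 CPM with NFs. The part of cell type composition in the oxidative phosphorylation difference was not tested.

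**Figure D3:**
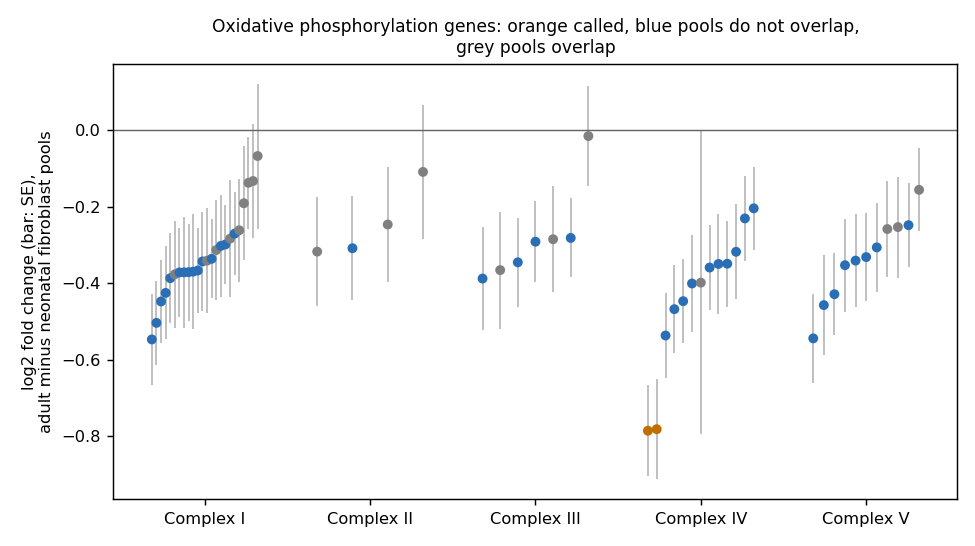
Log2 fold change (AF minus NF pools; bars are SE) of 59 oxidative phosphorylation genes by respiratory complex, ordered by size within a complex; orange marks called genes, blue marks genes whose pools do not overlap and grey those whose pools overlap. Every point lies below 0, and the 2 called genes, Cox8b and Cox6a2, lie near -0.8 in complex IV; Cycs, the list's cytochrome c gene (-0.33), belongs to no complex and is left out.

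Sarcomere genes gave a smaller and less even picture. Of 18 tested, Myom2 and Ttn were called lower and none higher, 8 had pools without overlap on the lower side (7.46% of all tested genes) and 1 on the higher side (8.85% of all), and the median was -0.26. The list summed to 31244 to 31408 CPM with AFs and to 32663 to 40264 CPM with NFs. Ttn, the giant spring of the sarcomere (chr2:76703980-76982547), stood at 2799, 2376 and 2333 CPM with AFs and at 3761, 4854 and 3381 CPM with NFs (-0.68 ± 0.14, adjusted p = 0.0498). It lost its call without any single pool but NFNCM3 (adjusted p up to 0.18). Of the others, Csrp3, a Z-disc sensor of stretch, stood at -0.79 ± 0.24 (adjusted p = 0.217) and Des, the muscle intermediate filament, at 0.51 ± 0.13 (adjusted p = 0.11).

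**Figure D4:**
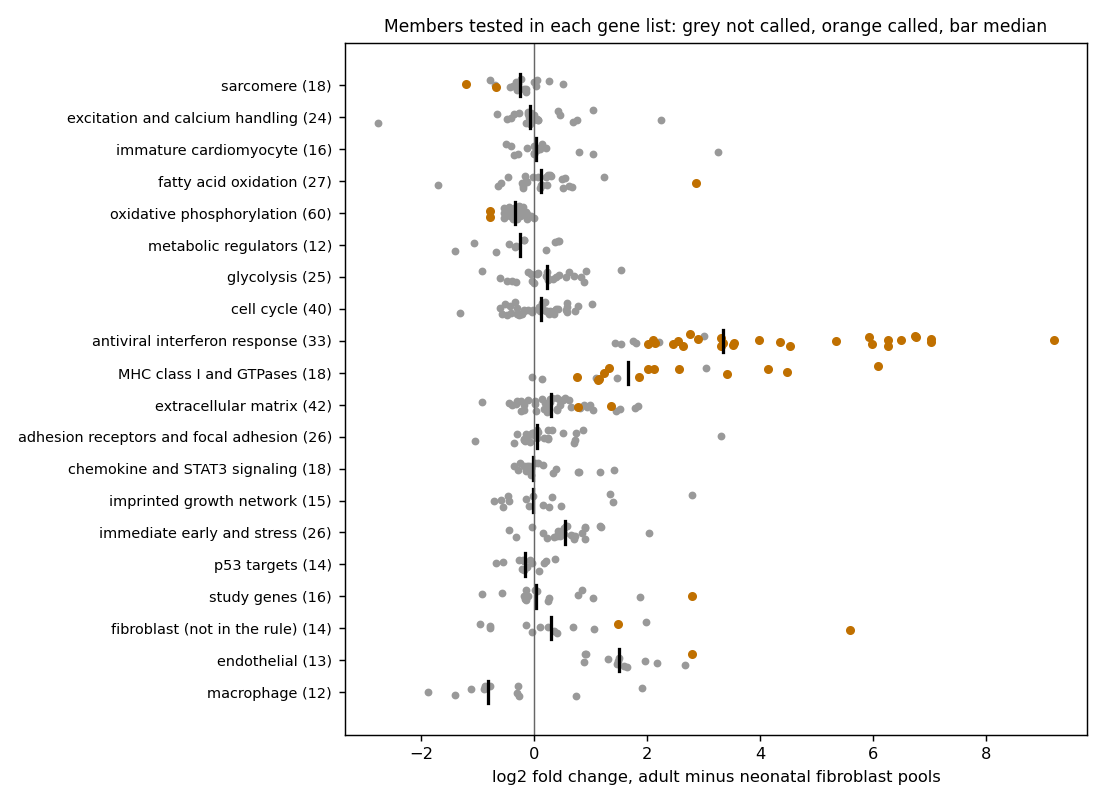
Log2 fold change (AF minus NF pools) of each tested member of each gene list; orange points were called, grey points were not, the black bar is the median and the number after a list's name is its tested members. The antiviral median lies at 3.34 and that of MHC class I and GTPases at 1.65, while oxidative phosphorylation lies at -0.34; the point near 9.2 is Ifi27l2a, which had no UMI with NFs, so its fitted value is no measured fold.

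Genes of immediate early and stress response leaned upward without a single call. None of 26 was called (edgeR), 15 had an unadjusted p under 0.05, 23 were positive, and the median was 0.55. Their sum was 2965 to 3585 CPM with AFs and 2302 to 2381 CPM with NFs. Trib3, a stress-induced pseudokinase, stood at 2.03 ± 0.51 (adjusted p = 0.117) and the transcription factor Jun at 1.15 ± 0.25 (adjusted p = 0.0624). In the wells removed by the marker sums, this list stood at 4481 to 4696 CPM with AFs and at 2896 to 3175 CPM with NFs.

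Markers of non-cardiomyocytes were read beside these results. Of the fibroblast markers that chose the wells, described without a test, Dcn, a small proteoglycan of the matrix, stood at 339, 227 and 236 CPM with AFs and at 36.5, 24.7 and 67.0 CPM with NFs. Col1a1, a chain of collagen I, stood at 375, 424 and 446 CPM with AFs and at 218, 145 and 214 CPM with NFs, whereas Postn, a matrix protein of activated fibroblasts, overlapped at 69.4 to 143 CPM with AFs and 123 to 190 CPM with NFs. On the fibroblast chip the 6 markers summed to 6169 and 8814 CPM in AF1 and AF2 and to 2336 and 3545 CPM in NF1 and NF2. Fibroblast markers that the rule did not use overlapped in sum, at 1629 to 2243 CPM with AFs and 1314 to 2109 CPM with NFs, with a median of 0.30. On the fibroblast chip these markers summed to 4642 and 5948 CPM in AF1 and AF2 and to 7880 and 6915 CPM in NF1 and NF2. That order is the reverse of the order of the 6 rule markers, so the overlap in the pools does not show equal fibroblast RNA.

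Among those 14 further fibroblast markers tested, Pdgfrb and Ly6a were called higher. Pdgfrb, a receptor of mesenchymal cells, stood at 92.7, 71.5 and 75.9 CPM with AFs and at 27.0, 30.5 and 28.1 CPM with NFs (1.49 ± 0.20, adjusted p = 0.0047). Ly6a, the surface antigen Sca-1, rests on 202 UMIs with AFs and 3 with NFs, a ratio of 57.0 with a 95% counting interval of 19.2 to 279, and lost its call without AFNCM2 or NFNCM2 (adjusted p up to 0.0569). Of 42 extracellular matrix genes Timp1, a protease inhibitor, rose by 1.36 ± 0.18 (adjusted p = 0.0043) and Ccn1, a matricellular protein, by 0.78 ± 0.13 (adjusted p = 0.0147), with 15 members without overlap on the higher side (8.85% of all tested genes) and a median of 0.30. Ccn1 lost its call without any pool but AFNCM1 (adjusted p up to 0.0856).

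Endothelial markers were higher with AFs in sum. Their 14 members summed to 463, 640 and 438 CPM in the AFNCM pools and to 165, 44.6 and 267 CPM in the NFNCM pools, 10 of 13 tested had pools without overlap on the higher side (8.85% of all tested genes), and the median was 1.49. The defining markers were present at low levels, with Pecam1 at 23.3 to 34.0 CPM and Cdh5 at 56.7 to 76.9 CPM with AFs. Fabp4, a lipid chaperone of capillary endothelium, was the 1 called member, at 121, 175 and 104 CPM with AFs and at 26.7, 3.05 and 27.3 CPM with NFs (2.79 ± 0.54, adjusted p = 0.0365), a call that was lost without any pool but NFNCM2 (adjusted p up to 0.148). In wells with cardiomyocyte markers at 3% or more the endothelial sum was 333, 284 and 117 CPM with AFs and 16.6, 18.1 and 28.7 CPM with NFs. Of 7 smooth muscle and pericyte markers, Mylk rose (2.10 ± 0.35, adjusted p = 0.0175) and lost its call without AFNCM2, AFNCM3, NFNCM1 or NFNCM3 (up to 0.111). The part of fibroblast, endothelial and smooth muscle RNA in the genes called here was not tested beyond the subsets given above.

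Of the 17 genes taken from the study's text, Myh6 belongs to the rule and Cxcr4 had too few UMIs to test, and Fabp4 was the only one of the other 15 that was called. The study scored AURKB, MKI67 and GJA1 in imCMs as stained proteins, and FABP4 and EGR1 as stained markers of fibroblast subtypes. It reported Pgf, Lamc1 and Lama2 as RNA that rose over time in fibroblasts of the heart. The values here are RNA of cardiomyocyte wells and do not test those statements. Among maturity genes, Pln, the brake on the calcium pump, stood at -0.15 ± 0.12 (adjusted p = 0.721), Gja1, the main gap junction protein, at 0.04 ± 0.14 (adjusted p = 0.963), and the fetal actin Acta1 at 1.03 ± 0.53 (adjusted p = 0.53) on 2.495 to 12.6 CPM. Among cycling genes, Mki67 stood at -0.57 ± 0.32 (adjusted p = 0.58) with overlapping pools, and Aurkb at 0.25 ± 0.98 (adjusted p = 0.966) on 0.277 to 10.3 CPM, too few UMIs to show a difference of moderate size. None of the 40 cell cycle genes was called (edgeR), 2 had an unadjusted p under 0.05, and their sums overlapped.

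The chemokine Cxcl12 stood at 164, 128 and 151 CPM with AFs and at 100.0, 71.8 and 88.3 CPM with NFs without overlap, but its rise of 0.77 ± 0.18 was not called (adjusted p = 0.0804). Its receptor Cxcr4, which was not tested, had 27 UMIs with AFs and 3 with NFs. Egr1, an immediate early factor, stood at 0.84 ± 0.22 (adjusted p = 0.138), the growth factor Pgf at 1.87 ± 0.66 (adjusted p = 0.294), and the laminin chain Lama2 at -0.93 ± 0.29 (adjusted p = 0.22), each with pools that did not overlap. Stat3, Lamc1, Eif5, Rpl34 and Actn2 lay between -0.19 and 0.24. Lists of calcium handling, immature cardiomyocyte, glycolytic, adhesion, imprinted and p53 target genes had no called member (edgeR), with 5, 2, 9, 4, 3 and 1 members at an unadjusted p under 0.05. The same held for metabolic regulators, chemokine and STAT3 signalling, atrial, ventricular and epicardial genes, with 1, 4, 1, 1 and 1 members at an unadjusted p under 0.05, and no erythroid marker had enough UMIs to test.

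Bulk RNA of sorted imCMs, 2 libraries with AFs and 2 with NFs, gave a second reading of the same question in separate libraries. In bulk RNA, fewer cells of a type and less RNA per cell cannot be told apart. Of 14041 genes tested there, 1564 were called (11.1%), 864 higher (6.15%) and 700 lower (4.99%). Of the 125 genes called higher in the pools, 115 were tested in bulk, where 58 were called higher and 10 lower. Of the 16 genes called lower in the pools, 13 were tested in bulk, where none was called lower and 2, Cox6a2 and Ttn, were called higher.

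The antiviral rise stood in both readings, at different sizes. In bulk 37 of 40 members were called higher and none lower, with a median of 1.19. Of all genes tested in bulk 6.15% were called higher. Ifit1 stood at 290 and 335 CPM with AFs and at 103 and 55.8 CPM with NFs in bulk (1.99 ± 0.18), beside 6.76 ± 0.32 in the pools, and Lcn2 at 422 and 395 CPM against 244 and 249 CPM (0.73 ± 0.11), beside 8.06 ± 0.37. Of 23 MHC class I genes and GTPases tested in bulk, 14 were called higher.

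Other lists did not run alike, and their counts stand beside 6.15% of all genes called higher in bulk and 4.99% called lower. Oxidative phosphorylation had a bulk median of 0.05 with 1 of 59 called higher, and sarcomere genes a bulk median of 0.24 with 3 of 18 called higher. Fatty acid oxidation had 17 of 31 called higher with a median of 0.61. Extracellular matrix genes had 19 of 43 called lower (median -0.50) and endothelial markers 6 of 14 called lower (median -0.50), whereas both medians were above 0 in the pools. Whether the 2 readings differ was not tested for any list.

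**Figure D5:**
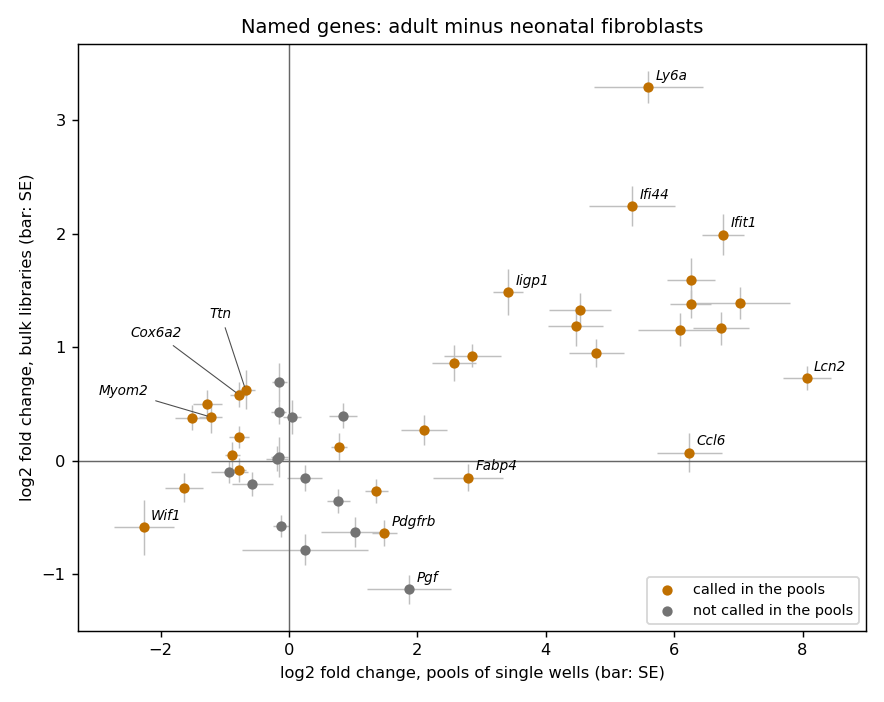
Log2 fold change (AF minus NF) of named genes in the pools of single wells (horizontal axis) and in the bulk libraries (vertical axis), with bars of 1 SE; orange genes were called in the pools and grey genes were not. Antiviral genes lie in the upper right, at 4.53 to 7.03 in the pools and 1.17 to 2.24 in bulk for those named, while Ttn and Cox6a2 lie left of 0 and above 0.5, and Pdgfrb lies right of 0 and below it.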

How the data were processed

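The authors dispensed sorted cells on ICELL8 chips, trimmed and filtered the reads, aligned them to mm10 with STAR 2.5.2b, assigned them to Ensembl genes with featureCounts (Subread 1.4.6-p1) and deposited UMI counts per well and gene. Whether strand was used is not stated. Bulk counts per gene were deposited in the same way. The authors picked wells with single cells from images, and no doublet caller was run here. Here 85 spike-in columns and 33 mitochondrial genes were left out, wells were joined to their names by barcode, and UMIs of kept wells were summed into 3 pools per group.

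Pools were compared with edgeR 4.0.16 (R 4.3.3): expression filter, TMM scaling, quasi-likelihood test, Benjamini-Hochberg adjustment over 12176 genes. Called means an adjusted p under 0.05 and a log2 fold change beyond 0.58. Bulk libraries (CPM over 1 in 2 or more) were fitted alike. The count model was tested on simulated data: for this pool comparison, on 11812 genes of which 200 were changed, it recovered 21% of genes changed by 1 on the log2 scale, with 5 false calls, so changes of that size are often missed. Alternatives used DESeq2 1.42.0 and limma 3.58.1 and other filters, well choices and left-out pools.

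Genes were named if called with non-overlapping pools and a mean of 20 CPM or more, as the 12 largest rises and up to 12 largest falls (10 qualified), with up to 4 called members per list and the genes the study's text discusses. Members and lists were chosen with earlier results of these data known. Coordinates are from GENCODE on GRCm38. Intervals and floors cover counting error only. The result of 1 antiviral gene is not reported here.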

Additional observations from a re-analysis of the deposited data

Results flagged for a closer look

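In 11 of 46 named genes outside the rule, the pools of single wells did not overlap in one direction and the bulk libraries did not overlap in the other. These differences were not tested. Most named genes were picked for pools without overlap, and 2 bulk libraries a side separate easily. The share of all tested genes with such opposite readings was not counted, so the 11 cannot be set against a background. Of the 11 genes 3 were called in both readings. Cox6a2 had a log2 fold change (AF minus NF) of -0.78 in the pools and 0.58 in the bulk libraries, where it stood at 401 and 394 CPM with AFs and at 289 and 243 CPM with NFs. Ttn had -0.68 in the pools and 0.62 in the bulk libraries, where it stood at 1402 and 1645 CPM with AFs and at 1174 and 806 CPM with NFs. Pdgfrb had 1.49 in the pools and -0.64 in the bulk libraries, where it stood at 238 and 192 CPM with AFs and at 322 and 346 CPM with NFs. Lower in the pools and higher in bulk, but not called in bulk, were Adamts5 (-1.50 and 0.38), Dcun1d4 (-1.27 and 0.50), Myom2 (-1.22 and 0.38) and Ccser2 (-0.78 and 0.21). In bulk Adamts5, Dcun1d4 and Myom2 had adjusted p of 0.0195, 0.00695 and 0.0482 (edgeR) and missed the call only by the 0.58 limit. Ccser2 had 0.125. Timp1 was called higher in the pools (1.36) and stood at -0.27 in bulk, where it was not called. Acta1 (1.03 and -0.63) and Pgf (1.87 and -1.14) were called lower in bulk and not called in the pools. Cxcl12 (0.77 and -0.35) was called in neither, with a bulk adjusted p of 0.0182 (edgeR) and a change within the 0.58 limit.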

How the results depend on the processing

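The number of genes called was 141, against 139 with DESeq2 size factors (139 shared with the 141), 99 with voom (98 shared) and 123 with a stricter marker ratio (98 shared), while it was 326 with the DESeq2 Wald test (254 higher, 72 lower), 269 with each well thinned (191 and 78), 549 without an expression filter, 285 without the marker rule and 70 to 113 with 1 pool left out (70 without AFNCM2, 78 without AFNCM3, 78 without NFNCM2). With 2 well choices made after seeing the data it was 218 (cardiomyocyte markers at 3% of UMIs or more) and 24 (wells without fibroblast marker UMIs, 14 higher and 10 lower, 5649 genes tested). The pool numbers did not pair the pools (correlations of same-numbered pools -0.0243, -0.0360 and -0.0149), and a fit with the number as a block called 56 genes, 17 antiviral genes (27 without the block) and 6 MHC class I genes and GTPases (13 without it). In wells without fibroblast marker UMIs 2 antiviral and 0 MHC members were called, of 9 tested each. With 1 pool left out, 19 to 26 antiviral and 6 to 11 MHC members were called. In bulk 879 to 1929 genes were called with 1 library left out (879 without imCM-NF 2, 988 without imCM-AF 2), against 1564. Directions changed for Adamts5 (1.06 in wells at 3% or more), Gja1 (-0.32 thinned, -0.064 without the marker rule, -0.042 with the study's well filters, -0.069 to 0.18 with 1 pool left out), Aurkb (-0.59 to 1.91 with 1 pool left out), Mki67 (0.63 at 3% or more, 0.11 without the marker rule, 3.39 without fibroblast marker UMIs) and Eif5 (0.052 without them), and the cause was not tested. The antiviral median lay between 2.63 and 4.26 and the oxidative phosphorylation median between -0.47 and -0.26 over the alternatives. Depth limits genes of few UMIs such as Aurkb and Cxcr4.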

Other observations

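Genes outside the lists were also called higher with AFs, and those named here were chosen after their values had been seen. Secreted proteins of the acute phase and of inflammation were among them. Clu, a secreted chaperone, stood at 1605, 1564 and 2134 CPM with AFs and at 434, 530.1 and 388 CPM with NFs (1.97 ± 0.16, adjusted p = 0.0002). Cxcl5, a chemokine for neutrophils, stood at 589, 337 and 395 CPM with AFs and at 1.67, 36.9 and 66.2 CPM with NFs (3.63 ± 0.72, adjusted p = 0.0389). Il6, a cytokine, stood at 31.3, 20.3 and 13.6 CPM with AFs and at 3.06, 1.11 and 2.93 CPM with NFs (adjusted p = 0.0152). Mmp3, a matrix protease, stood at 23.9, 63.0 and 70.5 CPM with AFs and at 3.62, 4.71 and 3.71 CPM with NFs (3.71 ± 0.44, adjusted p = 0.0019). Sprr1a stood at 759, 834 and 581 CPM with AFs and at 114, 45.5 and 111 CPM with NFs (3.003 ± 0.31), while on the fibroblast chip it was lower in AF1 and AF2 (69.2 and 68.1 CPM) than in NF1 and NF2 (385 and 353 CPM).

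On the fibroblast chip, both AF pools lay above both NF pools for 105 of the 125 genes called higher in the cardiomyocyte pools, against 27.7% of all tested genes, and both AF pools lay below both NF pools for 4 of the 16 genes called lower, against 15.4% of all tested genes. The part of fibroblast RNA in these values was not tested.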
